A study of Homo sapiens with 11 samples.

Results

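Envelope genes of endogenous retroviruses are the remains of viral env genes that sit in the human genome as ordinary loci. The 7 examined here, ERV3-1, ERVW-1, ERVFRD-1, ERVMER34-1, ERVH48-1, ERVV-1 and ERVV-2, were chosen by symbol, and all 7 are among the 58699 genes of the deposited total RNA table. The cells were HCT116, an established human colorectal cancer line. Control cells received siRNA to luciferase, a gene human cells lack (siLuc), and the others siRNA to Staufen1 (siStau1), which encodes a double-stranded RNA binding protein. Each was kept in the solvent DMSO or given the methylation inhibitor decitabine (DAC) at 500 nM for 5 days. The 4 combinations had 2 total RNA libraries each, and the authors deposited 1 FPKM value (a read density scaled for gene length and library size) per gene and combination. No value per library was given, so no SD or replicate spread can be printed and the depth is unknown. A further 3 libraries, 1 each from siLuc cells with DMSO, siLuc cells with DAC and siStau1 cells with DAC, hold RNA pulled down with J2, an antibody that recognises double-stranded RNA, per the library labels, although the protocol text common to all samples names Staufen1 as the antibody's target. The labels do not say whether libraries of a group came from separate cultures.

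Retroviral envelope proteins bind a receptor on a target cell and fuse the viral membrane with that of the cell. A few copies were kept by their hosts for this property: ERVW-1 and ERVFRD-1 encode the syncytins, which fuse trophoblast cells into the outer layer of the placenta. ERVH48-1 encodes suppressyn, a secreted inhibitor of the fusion driven by the ERVW-1 protein. Most retroviral copies in somatic cells are kept silent by DNA methylation and by repressive chromatin.

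Windows before annotated start sites are shown first because DAC inhibits DNA methylation, and CG pairs are the sites that can carry it. RefSeq (GRCh38.p14) gave a start site for 4 of the 7 genes, ERVMER34-1, ERV3-1, ERVW-1 and ERVV-1, with 2 starts for ERV3-1. The 250 bases before each start were searched for the letters CG, which read the same on both strands, and for TATAAA on either strand. Over all 35116 windows of this length the median number of CG pairs was 11, with quartiles of 3 and 23. CG occurred in 93.9% of windows and TATAAA in 10.7%. The window of ERVMER34-1 (chr4:52751426-52751675, minus strand) held 19 CG pairs and 69.6% G and C, more CG than 65.4% of windows. The other windows, with CG in capitals, are those of the first ERV3-1 start at chr7:65006688-65006937, the second ERV3-1 start at chr7:64999443-64999692 and ERVW-1 at chr7:92471425-92471674, all on the minus strand, and ERVV-1 at chr19:53013671-53013920 on the plus strand.
ERV3-1 first start: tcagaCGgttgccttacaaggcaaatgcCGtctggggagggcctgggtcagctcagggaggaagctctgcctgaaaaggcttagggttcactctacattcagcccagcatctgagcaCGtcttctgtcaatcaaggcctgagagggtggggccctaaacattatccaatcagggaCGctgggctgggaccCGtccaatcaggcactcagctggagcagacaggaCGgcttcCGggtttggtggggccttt
ERV3-1 second start: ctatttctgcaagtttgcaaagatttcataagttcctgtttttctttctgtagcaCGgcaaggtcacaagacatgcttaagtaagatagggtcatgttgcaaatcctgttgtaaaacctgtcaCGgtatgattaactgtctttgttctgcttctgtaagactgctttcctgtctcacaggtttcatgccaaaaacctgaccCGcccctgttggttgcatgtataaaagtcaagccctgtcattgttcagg
ERVW-1: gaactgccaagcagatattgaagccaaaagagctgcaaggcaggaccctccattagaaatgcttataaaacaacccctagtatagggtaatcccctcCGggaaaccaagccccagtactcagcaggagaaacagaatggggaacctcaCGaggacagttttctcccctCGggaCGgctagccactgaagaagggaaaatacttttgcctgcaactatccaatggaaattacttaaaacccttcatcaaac
ERVV-1: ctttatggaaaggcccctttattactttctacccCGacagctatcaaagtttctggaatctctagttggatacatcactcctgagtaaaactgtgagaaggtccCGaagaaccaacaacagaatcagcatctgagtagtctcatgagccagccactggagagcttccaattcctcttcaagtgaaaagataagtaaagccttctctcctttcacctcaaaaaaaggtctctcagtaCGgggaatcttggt
They held 7, 3, 4 and 3 CG pairs in that order, all below the median of 11. TATAAA occurred in the windows of the second ERV3-1 start (near the start) and of ERVW-1 (in the part far from the start). These 2 starts lie far inside their genes as listed in GENCODE release 29. The second ERV3-1 start lies 7301 bases inside the gene and 7211 bases from the nearest GENCODE start. The ERVW-1 start lies 6562 bases inside its gene but 119 bases from a GENCODE start. The ERVMER34-1 start and the first ERV3-1 start lie 215 and 56 bases inside. Neither the methylation of these windows nor their activity as promoters was measured here.

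Expression was concentrated in 2 of the 7 genes. ERVMER34-1 and ERV3-1 together held 98.6% (siLuc) and 99.9% (siStau1) of the summed FPKM of the 7 genes with DMSO, and 83.4% and 84.3% with DAC. The sum itself stayed between 11.5 and 12.7 FPKM. In siLuc DMSO the order of levels was ERVMER34-1, ERV3-1, ERVW-1 and ERVFRD-1, with ERVH48-1, ERVV-1 and ERVV-2 listed at 0. In both DAC groups ERVH48-1 and ERVW-1 followed these, and which of them was higher differed between the siRNAs. Without a spread per group, neighbours in this order cannot be tested against each other.

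**Figure D1:**
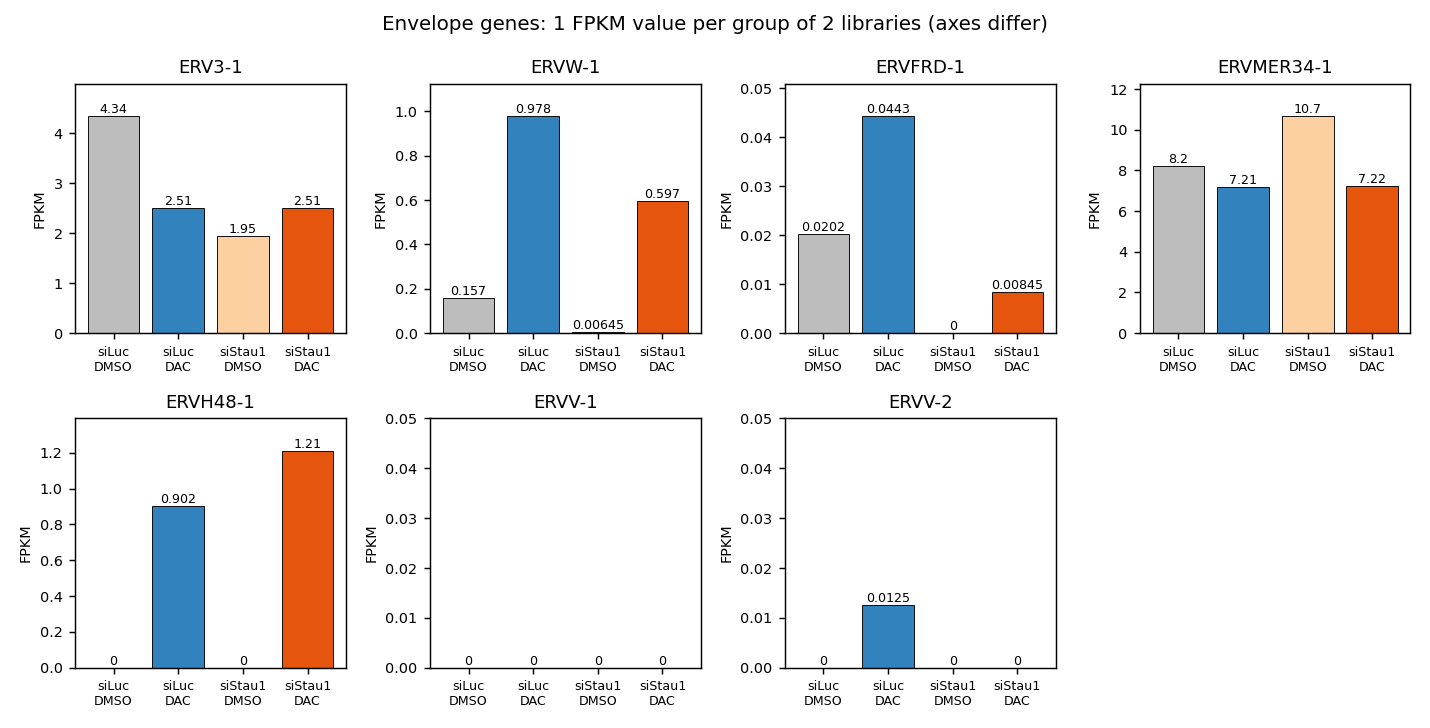
FPKM (vertical axis, different in each panel) of the 7 envelope genes in the 4 total RNA groups, 1 bar per group of 2 libraries, with no error bars because no values per library were given. ERVMER34-1 and ERV3-1 were above 1 FPKM in every group, ERVH48-1 has bars for the DAC groups alone, and ERVV-1 was listed at 0 throughout.

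ERVMER34-1 (ENSG00000226887.7, chr4:52722618-52751640, minus strand, GRCh38) encodes an envelope protein known as HEMO, which is shed from the cell surface. It has 3 annotated transcripts and a coding sequence of 1689 bases. The siLuc groups had 8.20 FPKM with DMSO and 7.21 with DAC, and the siStau1 groups had 10.7 and 7.22. The siStau1 DMSO group was the highest, and the 2 DAC groups were nearly equal. On the scale of log2(FPKM + 0.1), used for every ratio below, DAC over DMSO was −0.18 in siLuc, turning to 0.10 once ratios were centred among genes of similar transcript GC, and −0.56 in siStau1. In the authors' deposited table the q-values were 0.868 and 0.487, so neither difference was called. Knockdown over control was 0.38 in DMSO (q-value 0.671 in the authors' deposited table) and 0.0011 in DAC (q-value 0.999 there), the last turning to −0.061 after GC centring. In siLuc DMSO 7476 of the 58699 genes had a higher FPKM than ERVMER34-1.

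ERV3-1 (ENSG00000213462.4, chr7:64990809-65006743, minus strand) carries the envelope of the HERV-R group in a coding sequence of 1812 bases. The siLuc groups had 4.34 FPKM with DMSO and 2.51 with DAC, and the siStau1 groups had 1.95 and 2.51. The control group without DAC was the highest, and the other 3 groups lay between 1.95 and 2.51. DAC over DMSO was −0.77 in siLuc and 0.35 in siStau1, with q-values of 0.660 and 0.902 in the authors' deposited table. The difference of these 2 ratios, siStau1 minus siLuc, was 1.12 and was not tested. Knockdown over control was −1.11 in DMSO (q-value 0.730 in the authors' deposited table) and 0.00096 in DAC (q-value 0.9995 there). None of these was called.

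ERV3-1 shares exonic bases with ZNF117 (ENSG00000152926.14, chr7:64971776-65006684), a zinc finger gene on the same strand. Of the 4574 exonic bases of ERV3-1, 372 (8.13%) also belong to exons of ZNF117, and 6.06% of its 50-base words occur in ZNF117 transcripts. Reads there cannot be given to one gene alone. ZNF117 had 1.71 FPKM with DMSO and 0.276 with DAC under siLuc, and 2.79 and 0.753 under siStau1. It was lower in each DAC group than in its DMSO group, with q-values of 0.150 in siLuc and 0.290 in siStau1 in the authors' deposited table, and it was not called. The 2 genes together had 6.05, 2.78, 4.74 and 3.26 FPKM in the same order. ERV3-1 made up 71.8%, 90.1%, 41.2% and 76.9% of these sums. In siStau1 DMSO, where ERV3-1 was lowest, ZNF117 was highest. The direction of the ERV3-1 difference with DAC in siStau1 was opposite to that of the pair's sum.

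**Figure D2:**
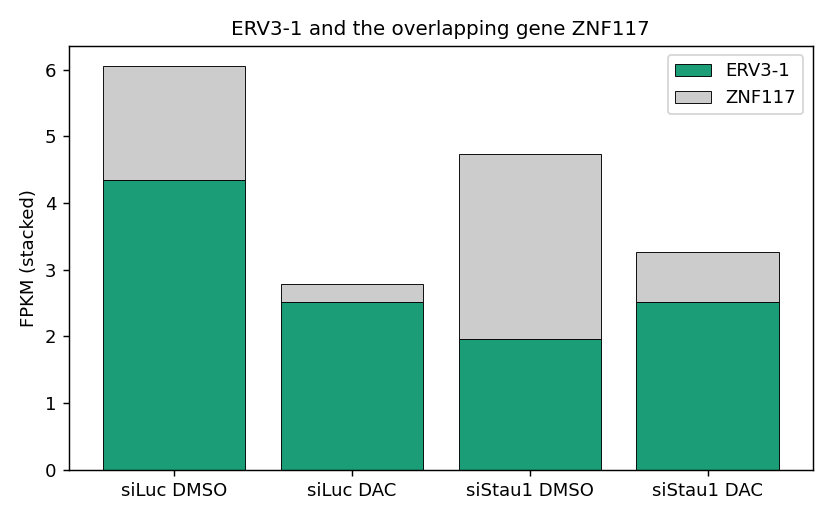
FPKM of ERV3-1 and of ZNF117, stacked, in the 4 total RNA groups (horizontal axis). The sum was 6.05 and 4.74 FPKM in the DMSO groups and 2.78 and 3.26 FPKM in the DAC groups, and ERV3-1 made up the smallest share, 41.2%, in siStau1 DMSO.

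ERVH48-1 (ENSG00000233056.2, chr21:42916803-42925646, minus strand), the suppressyn gene, was the 1 envelope gene called in the 5 comparisons used here. GENCODE release 29 lists it as a lincRNA with no coding sequence. Both DMSO groups were listed at 0, and the DAC groups had 0.902 FPKM under siLuc and 1.21 under siStau1. Both DAC groups were thus above both DMSO groups. ERVH48-1 rose with DAC in both arms, where the authors' deposited table gives p = 5e-05 and q = 0.00162. These are the smallest values the table holds, and other genes listed at 0 with DMSO, such as PNMA5 and CDX1, have them too. The siLuc call rests on a level under 1 FPKM, and with genes of at least 1 FPKM alone the count of called envelope genes in siLuc was 0. Its test statistic there is not a number. It was also called there between siStau1 DAC and siLuc DMSO, with the same q-value. These comparisons share groups. No fold is given against a group listed at 0. Under DAC, siStau1 over siLuc was 0.39 (q-value 0.805 in the authors' deposited table), and in DMSO the gene was not tested. No exon of another gene overlaps its exons. Its neighbour at lower coordinates, NDUFV3, a subunit of respiratory complex I, had between 19.7 and 27.8 FPKM in the 4 groups.

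Calls against a group at 0 were common in this table. Over all tested genes, 8.71% were called higher with DAC in siLuc and 4.56% in siStau1. Over tested genes listed at 0 in the DMSO group, the called share was 56.2% (438 of 779) in siLuc and 55.2% (286 of 518) in siStau1. With the DAC level limited to the range from 0.5 to under 2 FPKM, it was 54.0% and 54.4%. Most tested genes with the pattern of ERVH48-1 were thus called too. Between siStau1 DAC and siLuc DMSO 4.98% of all tested genes were called (4.02% higher and 0.964% lower), 59.2% of those at 0 in the DMSO group, and 58.9% of those also in that range with DAC. ERVMER61-1, a lincRNA of another retroviral group, had the same pattern, listed at 0 in both DMSO groups and at 0.698 and 0.766 FPKM with DAC, and was not called, with q-values of 0.415 and 0.404 in the authors' deposited table. Of 297 genes listed at 0 in both DMSO groups and tested in both arms, 190 were called in both, 152 of them protein-coding and 23 lincRNAs. In siLuc DAC, 161 of the 190 were at least as high as ERVH48-1, itself included. This rank is for siLuc DAC alone and was not counted in siStau1 DAC.

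**Figure D3:**
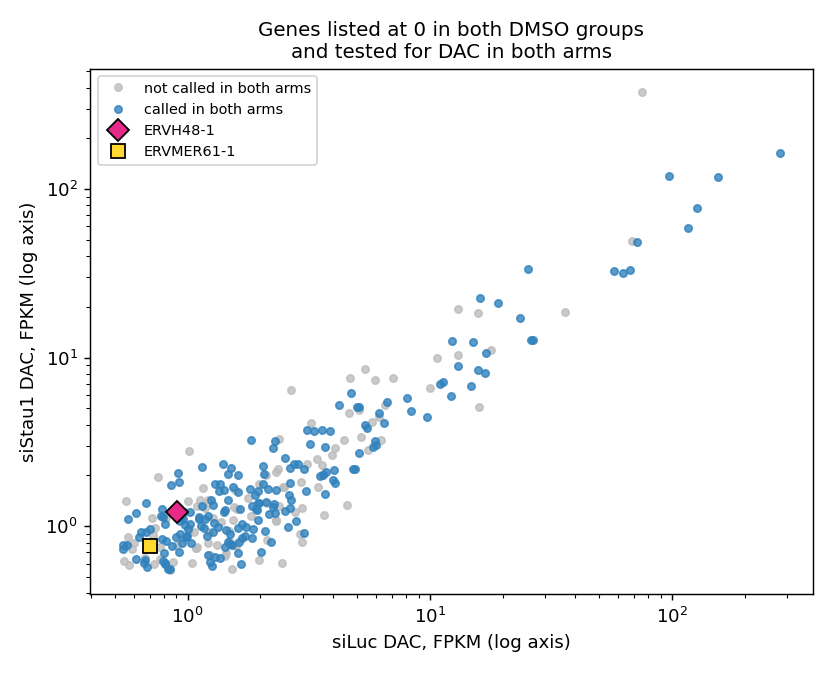
FPKM in siLuc DAC (horizontal, log axis) and siStau1 DAC (vertical, log axis) of the 297 genes listed at 0 in both DMSO groups and tested for DAC in both arms, 1 point per gene, blue where the authors' deposited table called the gene in both. ERVH48-1, at 0.902 and 1.21 FPKM, lies near the lower end of the siLuc DAC axis, not far from ERVMER61-1, which was not called.

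ERVW-1 (ENSG00000242950.6, chr7:92468380-92477986, minus strand), the gene of syncytin 1, has a coding sequence of 1614 bases. The siLuc groups had 0.157 FPKM with DMSO and 0.978 with DAC, and the siStau1 groups had 0.00645 and 0.597. Both DAC groups were above both DMSO groups, and all 4 values were under 1 FPKM. DAC over DMSO was 2.07 in siLuc and 2.71 in siStau1. The p-values in the authors' deposited table were 0.145 and 0.0459, with q-values of 0.496 and 0.265, so neither was called. The size of these ratios follows the pseudocount, since the DMSO levels are near 0: with 1 FPKM added they were 0.77 and 0.67, and with 0.01 FPKM added 2.57 and 5.21. Under DAC, siStau1 over siLuc was −0.63 (q-value 0.824 in the authors' deposited table), and in DMSO it was −1.27 and was not tested. With 1 FPKM added these were −0.31 and −0.20, and with 0.01 FPKM added −0.70 and −3.34. An antisense gene, AC007566.1, spans ERVW-1 at no more than 0.417 FPKM, and no exon of another gene overlaps those of ERVW-1.

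The remaining 3 genes were at or near 0. ERVFRD-1 (ENSG00000244476.2, chr6:11102489-11111732, minus strand), the gene of syncytin 2, lies inside SMIM13, on the opposite strand, and shares no exonic base with it. Its levels were 0.0202 FPKM with DMSO and 0.0443 with DAC under siLuc. Under siStau1 it was listed at 0 with DMSO and had 0.00845 FPKM with DAC. SMIM13, a small membrane protein gene, had between 11.7 and 14.0 FPKM. ERVV-1 (ENSG00000269526.1, chr19:53013921-53016122, plus strand) was listed at 0 in all 4 groups. ERVV-2 (ENSG00000268964.1, chr19:53044738-53051076, plus strand) had 0.0125 FPKM in siLuc DAC and was listed at 0 in the other groups. Over 1986 aligned transcript bases these neighbouring HERV-V genes are 96.2% identical, and 51.0% of the 50-base words of ERVV-1 occur in ERVV-2, so a read there may fit both. None of the 3 was tested by the authors in these 5 comparisons. A pseudogene transcribed on the other strand across ERVV-1, ZNF702P, had 0.529 FPKM with DMSO and 3.76 with DAC under siLuc, and 0.653 and 6.10 under siStau1. ZNF702P rose with DAC in siStau1 (q-value 0.0272 in the authors' deposited table) and was not called in siLuc (q-value 0.104 there), and it shares no exonic base with ERVV-1.

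Counted over the 7 genes, 4 were tested with DAC in each arm, 1 of them (ERVH48-1) was called, and it was higher. Over all genes 13.5% of those tested were called with DAC in siLuc and 7.46% in siStau1, split into 8.71% higher and 4.78% lower, and 4.56% higher and 2.89% lower, so 1 call among 4 genes says little against the background. With knockdown, the authors' Cuffdiff calls were 0 of 2 tested in DMSO, against 0.799% of all tested genes (0.333% higher, 0.466% lower), and 0 of 4 in DAC, against 0.904% (0.434% higher, 0.469% lower). At an unadjusted p under 0.05 these numbers were also 0 of 2 and 0 of 4, and no second tool could be run on 1 value per group. The median log2 ratio of the tested members was 0.94 with DAC in siLuc (all tested genes 0.23), 1.53 with DAC in siStau1 (0.11), −0.37 with knockdown in DMSO (−0.020) and 0.0010 with knockdown in DAC (−0.14). The first 2 medians include ERVH48-1 against groups listed at 0, so they depend on the pseudocount.

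**Figure D4:**
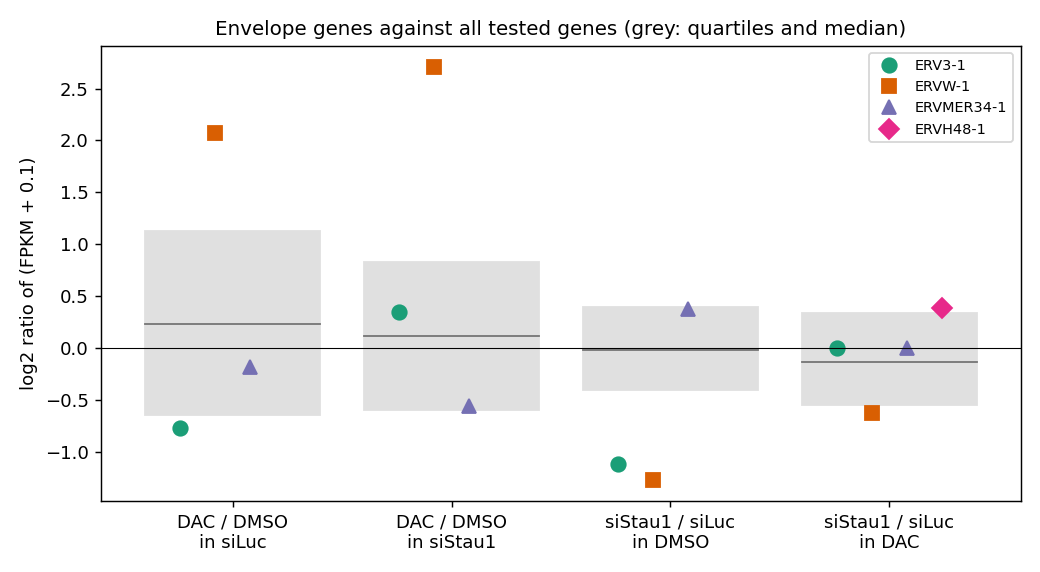
Log2 ratio of (FPKM + 0.1) in the 4 comparisons (horizontal axis), 1 point per gene, over the quartiles and median of all tested genes (grey). Envelope genes are shown where both groups were above 0 and either reached 0.1 FPKM. ERVW-1 lies above the upper quartile in both DAC comparisons and below the lower quartile in both knockdown comparisons. ERV3-1 lies below the lower quartile in the first and the third, and ERVMER34-1 within the quartiles in all 4. ERVH48-1 has a point for knockdown in DAC alone, above the upper quartile, and ERVW-1 was not tested for knockdown in DMSO.

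Transcripts of several proteins these envelopes work with were detected. SLC1A5, the amino acid transporter that serves as receptor of the ERVW-1 protein and is bound by suppressyn, had 47.5 FPKM with DMSO and 108 with DAC under siLuc, and 23.9 and 61.8 under siStau1. It was higher with DAC under either siRNA and lower with knockdown under either treatment, but was not called. In the authors' deposited table its q-values for DAC were 0.0545 (siLuc) and 0.0643 (siStau1), and those for knockdown 0.243 (DMSO) and 0.253 (DAC). MFSD2A, a lipid transporter and the receptor of the ERVFRD-1 protein, had 2.95 FPKM with DMSO and 6.87 with DAC under siLuc, and 2.54 and 4.63 under siStau1, with no call. FURIN, a protease that cuts envelope precursors, rose with DAC in siLuc from 4.77 to 21.4 FPKM (q-value 0.00162 in the authors' deposited table), and had 3.65 and 12.4 FPKM in siStau1 (q-value 0.0811 there). GCM1, the trophoblast factor that switches on the syncytin genes, was at most 0.0424 FPKM in any group. Of the 9 receptors, proteases and regulators listed, 7 were tested in each comparison. FURIN with DAC in siLuc was the 1 call among the 7, where 13.5% of all tested genes were called, so this is near the background. By the authors' Cuffdiff test, an unadjusted p under 0.05 was found with DAC for 2 of 7 in siLuc (28.9% of all tested genes) and 3 of 7 in siStau1 (19.0%). With knockdown it was found for 1 of 7 in DMSO (4.3%) and 2 of 7 in DAC (6.95%). With DAC in siStau1 0 of 7 were called (7.46% of all tested genes), as with knockdown in DMSO (0.799%) and in DAC (0.904%). For DAC, the median of the 7 was 0.75 in siLuc (all tested genes 0.23) and 0.23 in siStau1 (0.11). For knockdown it was −0.039 in DMSO (−0.020) and −0.59 in DAC (−0.14).

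Other genes of retroelement origin were set beside the envelopes. Of 8 other genes named ERV, 3 were tested with DAC in each arm. In siLuc 1 was called higher (8.71% of all tested genes), and in siStau1 0 were called (4.56% of all tested genes were called higher). The called gene, ERVK13-1, rose in siLuc from 0.902 to 4.56 FPKM (q-value 0.0149 in the authors' deposited table). In siStau1 it had 1.77 and 3.10 FPKM (q-value 0.531 there). ERVK3-1 had the highest level of them, 31.5 FPKM with DMSO and 48.8 with DAC under siLuc, and 27.8 and 48.1 under siStau1, with no call. Of 24 human genes derived from retroelements, mostly from gag or protease sequences, 13 were tested with DAC in siLuc. Of these 5 were called, all higher, where 8.71% of all tested genes were called higher. In siStau1 12 were tested and 3 were called, all higher, where the share over all tested genes was 4.56%. PNMA5 in both arms and PNMA8A in siStau1 were calls against a group listed at 0, a class called in 56.2% (siLuc) and 55.2% (siStau1) of cases. PNMA5 went from a listed 0 to 67.2 FPKM under siLuc and to 33.1 under siStau1, and so rose in both arms (q-value 0.00162 in the authors' deposited table). PEG10, which is needed for the placenta, rose in both arms, from 1.55 to 6.41 FPKM under siLuc (q-value 0.0285 in the authors' deposited table) and from 2.58 to 9.58 under siStau1 (q-value 0.0254 there). ARC, which encodes a capsid-like protein of neurons, rose with DAC in siLuc from 1.45 to 21.5 FPKM, and had 1.67 and 7.38 FPKM in siStau1 (q-value 0.508 in the authors' deposited table). With knockdown in DAC it fell from 21.5 to 7.38 FPKM (q-value 0.00415 in the authors' deposited table). It was the 1 call among 13 tested genes of this list, where 0.904% of all tested genes were called (0.434% higher, 0.469% lower). With knockdown in DMSO 10 genes of the list were tested and 0 were called, where 0.799% of all tested genes were called. The medians of the tested members for DAC were 0.70 in siLuc and 0.91 in siStau1, above the 0.23 and 0.11 of all tested genes.

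Genes with the most similar pattern were sought for the 3 envelope genes that reached 1 FPKM in any group, over the 4 group values of log2(FPKM + 0.1) after removal of each gene's mean, among protein-coding genes that reached 1 FPKM. The nearest to ERVMER34-1 were ERCC4 (distance 0.025), CPSF6 (0.039) and DDX5 (0.043). The nearest to ERV3-1 were SPAG4 (0.090), RCCD1 (0.098) and HBE1 (0.11), and those to ERVH48-1 were ZNF677 (0.14), ARMCX1 (0.14) and ANPEP (0.14), all 3 listed at 0 in both DMSO groups. With 4 points and 12609 or 12610 genes compared, close matches are easily found, and these are descriptions only.

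The repeat elements of the J2 libraries carried no positions here, so values were read for whole repeat families, not for the loci of the envelope genes. RepeatMasker family names were matched to the genes as HERV3-int and LTR4 for ERV3-1, HERV17-int and LTR17 for ERVW-1, MER50-int and MER50 for ERVFRD-1, MER34-int for ERVMER34-1, and HERVH48-int and MER48 for ERVH48-1, where "-int" is the viral body and the other name the flanking LTR. No family was set for the HERV-V genes. Reads on repeats numbered 71473124 for siLuc DMSO, 68944777 for siLuc DAC and 83037330 for siStau1 DAC. Each condition had a single J2 library, so there was no test, and the exact Poisson 95% intervals given cover counting error only. Even read numbers were the more frequent: in siLuc DMSO 450999 elements held 2, 4 or 6 reads, and 184425 held 1, 3 or 5. If mates were counted one by one, the intervals are too narrow.

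Values are RPM, reads scaled to the total on repeats, with the interval in brackets, first for siLuc DMSO, then siLuc DAC, then siStau1 DAC. HERV17-int, the body of the ERVW-1 group, had 213 (209.6 to 216), 266 (262 to 269.6) and 274 (271 to 278). Its LTR, LTR17, had 279 (275 to 283), 258 (254 to 262) and 406 (402 to 410.4). LTR17 was thus highest in siStau1 DAC. A single element held 38.5%, 41.9% and 44.5% of its reads in the 3 libraries, and without it the log2 ratio of siStau1 DAC over siLuc DAC was 0.59 in place of 0.66. HERVH48-int, the body of the ERVH48-1 group, had 30.0 (28.7 to 31.3), 27.4 (26.2 to 28.7) and 35.4 (34.1 to 36.7), and MER48 had 18.9 (17.9 to 19.98), 13.5 (12.7 to 14.4) and 20.9 (19.9 to 21.9). For both families of ERVH48-1, siLuc DAC was the lowest library, unlike the gene's FPKM in total RNA. Under the authors' own scaling siLuc DAC was above siLuc DMSO in both families, so this order depends on the scaling.

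MER34-int, the body of the ERVMER34-1 group, had 10.4 (9.62 to 11.1), 23.5 (22.3 to 24.6) and 17.99 (17.1 to 18.9). Its log2 ratio of siLuc DAC over siLuc DMSO was 1.18, above 88.1% of the 570 LTR families with at least 100 reads in all, whose median was 0.58. ERVMER34-1 itself, in total RNA, was at 8.20 FPKM in siLuc DMSO and 7.21 in siLuc DAC. MER50-int, of the ERVFRD-1 group, had 52.02 (50.4 to 53.7), 81.9 (79.7 to 84.03) and 73.1 (71.2 to 74.9), and MER50 had 251 (248 to 255), 254 (250.5 to 258) and 288 (285 to 292). HERV3-int had 76.5 (74.5 to 78.6), 90.4 (88.2 to 92.7) and 107 (105 to 109), with 47.1% to 52.1% of its reads on 1 element. LTR4 had 7.58 (6.96 to 8.25), 13.7 (12.8 to 14.6) and 11.9 (11.2 to 12.7).

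Of the 9 families, 6 had more RPM with DAC than with DMSO under siLuc, against 90.2% of the 570 LTR families. MER48 lay above 2.46% of those families in this ratio, HERVH48-int above 6.84% and LTR17 above 7.19%, at the other end from MER34-int. For 3 of the 6 (LTR4, MER50-int and MER34-int) this held under every scaling tried and without the element with the most reads. Between siStau1 DAC and siLuc DMSO, where siRNA and drug both change, all 9 were higher in siStau1 DAC in every such setting, as were 96.3% of the 570 families in RPM, so the count is near the background. In this ratio MER48 lay above 7.54% of the families, MER50 above 12.3% and HERVH48-int above 14.2%. In siStau1 DAC against siLuc DAC, 6 were higher (38.6% of the 570 families), and 4 of the 9 kept their direction in every setting: LTR17, HERVH48-int and MER48 were higher and MER34-int was lower. With DAC under siLuc, the share of elements with any read was below that with DMSO in 8 of the 9 families, for example 33.9% against 48.4% of 124 HERVH48-int elements, and the exception was MER34-int, with 11.8% against 10.4% of 423. Over the 570 families this share was lower in 51.6%. Of the 3 libraries siLuc DAC had the fewest reads on repeats. On LTR elements it had 4545024 reads, more than the 3815352 of siLuc DMSO and fewer than the 5749917 of siStau1 DAC. The part of depth in these shares was not tested. Between siStau1 DAC and siLuc DMSO the share was higher in siStau1 DAC in 8 of the 9 families (49.2% against 48.4% for HERVH48-int) and in 91.2% of the 570.

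**Figure D5:**
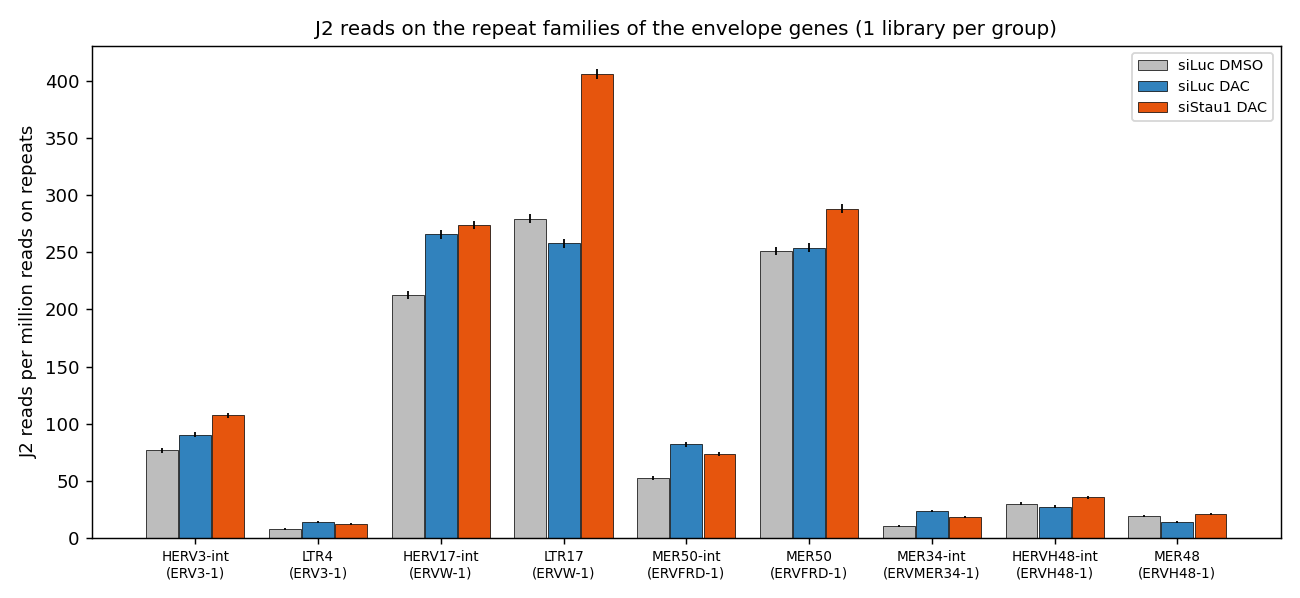
RPM on repeats in the J2 libraries (vertical axis) for the 9 repeat families of the envelope genes, 1 bar per library, with exact Poisson 95% intervals for counting error. LTR17 was highest in siStau1 DAC at 406, and MER34-int was low in all 3 libraries, from 10.4 to 23.5.

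Checks of the samples bear on these results. STAU1 had 35.5 FPKM in siLuc DMSO and 30.0 in siStau1 DMSO, and 33.7 and 27.1 with DAC, with q-values of 0.767 and 0.685 in the authors' deposited table, so the groups labelled siStau1 differed little from control in the targeted mRNA, and knockdown directions rest on the labels. Of 10 markers of colon epithelium, 7 reached 1 FPKM in some group, with KRT8 between 834 and 3159 FPKM, while VIL1 and CDH17 stayed under 0.2 FPKM and CDX1 and LGALS4 were listed at 0 in siLuc DMSO. Of 20 trophoblast markers, 14 were under 0.1 FPKM in every group, among them GCM1, CGA and CSH1, the last listed at 0 throughout. Their summed level was 25.6 FPKM with DMSO and 136 with DAC under siLuc, and 17.8 and 71.4 under siStau1. The 4 that reached 1 FPKM were KRT7, SDC1, PGF and TFPI2, of which KRT7 and SDC1 are expressed by other epithelia too. The sum over 9 markers of blood, vessel and connective tissue cells was 3.26, 29.9, 1.79 and 16.6 FPKM in that order, with none of the 9 listed at 0 in either DAC group. The colon epithelium sum was higher with DAC too, 2601 and 8200 FPKM under siLuc and 2149 and 5938 under siStau1, while EPCAM of that list fell under siLuc from 259 to 117 FPKM (q-value 0.0157 in the authors' deposited table). The summed FPKM of all genes was higher with DAC too, 1129076 and 1793611 under siLuc and 967545 and 1491061 under siStau1. Single genes weighed on the 3 sums: in siLuc DAC KRT18 had 3469 FPKM, KRT7 96.8 and CD68 17.1. All 3 sums moved with DAC as ERVH48-1 did, as did the sum over all genes, and their part in its rise was not tested. In bulk RNA, fewer cells of a kind and less RNA per cell cannot be told apart.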

How the data were processed

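Total RNA values are FPKM from a table the authors deposited in the layout of Cuffdiff, per the file headers, with 1 value per group of 2 libraries and, for 6 comparisons, the authors' deposited p-value, q-value, test score (used only to say where it is not a number) and log2 fold change (not used); 5 of the 6 are used here. Per the submitters' processing notes the tools include HISAT2 2.1.0, Cuffdiff 2.2.1, Cuffnorm 2.2.1, featureCounts and DESeq 1.36.0, with build hg38. The calls are the authors' at a q-value under 0.05, adjusted by them over all 102180 tests. A count test, set for the case of counts per library, could not be used on FPKM. Ratios are log2 with a pseudocount of 0.1 FPKM, which makes low genes look less changed.

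The J2 column of siLuc DMSO, as deposited, holds read counts per repeat element plus 1. Both DAC columns are deposited as a signal, such a count times a factor of 1.92 (siLuc) or 1.27 (siStau1), and 100% of their values gave whole reads (tolerance 1e-06). No count model was fitted, with 1 library per group. The authors' deposited ratio, a score on a log scale, was not used.

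Gene positions came from GENCODE release 29, in which all 58699 identifiers were found. Members, lists and repeat families were chosen with earlier results of these data known. Named genes are the members, neighbouring and overlapping genes (not all are reported here), the listed partners, called genes of the other lists and the 3 nearest patterns per member. STAU1 and the cell markers are checks, and ERVK3-1 and ERVMER61-1 were added after their values were seen. The p-value adjustment and the GC centring were tested on simulated data. Python 3.11.15, numpy 2.4.6, pandas 2.3.3 and scipy 1.17.1 were used.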

Additional observations from a re-analysis of the deposited data

How the results depend on the processing

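The calls kept their number with a q-value limit of 0.01 and with adjustment within each comparison. With only genes of at least 1 FPKM in either group, the count for DAC in siLuc went from 1 to 0, because ERVH48-1 is at 0.902 FPKM there. GC centring turned ERVMER34-1 to 0.10 for DAC in siLuc and to −0.061 for knockdown in DAC. A pseudocount of 1 FPKM turned the difference of the ERVW-1 DAC ratios, siStau1 minus siLuc, from 0.64 to −0.11. For siLuc DAC over siLuc DMSO in J2, the authors' scaling turned LTR17 to 0.77, HERVH48-int to 0.76 and MER48 to 0.40, and reads outside Alu turned HERV3-int to −0.082, HERV17-int to −0.0031 and MER50 to −0.31. For siStau1 DAC over siLuc DAC, the authors' scaling turned HERV3-int to −0.077, HERV17-int to −0.28 and MER50 to −0.14, and reads outside Alu turned LTR4 to 0.015 and MER50-int to 0.045. The J2 reversals follow from the other denominators by construction, and the cause of the others was not tested. No paired analysis was possible because the table gives 1 value per group and none per library, and for the same reason no replicate could be left out. Depth is unknown for total RNA, so how far values under 1 FPKM can be trusted cannot be said.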
